A study of Mus musculus with 16 samples.

Results

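The cells described here are CD8 T cells of mouse kidney allografts that carried RNA of Pdcd1, which encodes the inhibitory receptor PD-1, together with RNA of at least 1 further checkpoint receptor, either Lag3 (LAG-3) or Havcr2 (TIM-3). A cell was a member when it had at least 1 unique molecular identifier (UMI, the tag that counts 1 captured RNA molecule) of Pdcd1, at least 1 of Lag3 or Havcr2, and at least 1 of Cd8a or Cd8b1. The rule was applied to the CD8 T cell matrices of accepted grafts at 3 weeks and of rejecting grafts at 1 week after transplantation. It found 4258 members among 22206 cells of the accepted grafts and 505 among 2184 cells of the rejecting grafts, together 4763 of the 72639 cells in the 9 CD8 matrices of the series. The members were thus chosen by their measured UMIs of these genes. Within each library they were set against triple-negative cells, which had no UMI of Pdcd1, Lag3 or Havcr2, and against PD-1-only cells, which had Pdcd1 and neither of the others. All 3 classes had a Cd8a or Cd8b1 UMI.

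PD-1, LAG-3 and TIM-3 are surface receptors that T cells display after their antigen receptor has been engaged. PD-1 binds PD-L1 and PD-L2 and recruits phosphatases that dampen antigen receptor signaling, LAG-3 binds MHC class II, and TIM-3 binds galectin-9 and other ligands. Their joint display is a known feature of CD8 T cells under lasting antigen exposure, in tumors, chronic infection and grafts, but recently activated effector cells display them as well.

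The accepted grafts were DBA/2J kidneys in C57BL/6J (B6) recipients, a pairing that accepts the kidney without treatment, and the rejecting grafts were B6 kidneys in DBA/2J recipients. The CD8 matrices held 5 libraries of accepted grafts at 3 weeks, 3 of accepted grafts at 1 week and 2 of rejecting grafts at 1 week. The mice were wild-type males with no genetic change or drug named for these groups, and their age was not given in the sources used here. The labels name C57BL/6J for every sample, the rejecting ones included, whereas the study's text gives DBA/2J recipients for rejection. Model, strain of the T cells and, against the 3-week grafts, time after transplantation therefore changed together and cannot be told apart. The study treats each mouse as a separate sample. It gives 5 mice at 3 weeks and 3 at 1 week for accepted grafts but no number for rejecting grafts, so libraries are the units here. For classes of the same library, p-values measure how their difference varies over libraries. Accepted 3-week and rejecting libraries shared 1 estimate of this spread per gene, so p-values for the 2 rejecting libraries rest largely on the 5 accepted ones. Where members of the models are set directly against each other, p-values measure the spread between libraries.

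Depth differed between the classes, and it enters the rule itself. Members had a median of 2236 to 3311 UMIs per cell over the accepted 3-week libraries and 2139 and 3870 in the rejecting libraries, against 1812 to 2734 and 1546 to 2206 in triple-negative cells. A cell with more captured RNA is more likely to show all the rule's genes. Each comparison was therefore repeated on classes matched within each library for UMIs per cell, and a gene is called held when both tests called it in the same direction. Matching left 3405 members of accepted grafts at 3 weeks and 241 of rejecting grafts. UMIs of rejecting members fell from 533738 and 1272805 to 293664 and 257319. The matched test thus had fewer counts, and a call that did not hold need not have come from depth. Differences below are log2 fold changes ± SE from edgeR's quasi-likelihood test on UMIs summed per library and class, with the library as a block except where members of the 2 models are set directly against each other, and were called at a Benjamini-Hochberg adjusted p below 0.05. Levels are CPM, the UMIs of a gene per 1000000 UMIs of a class in a library.

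The labelled cell type was present. The 5 CD8 T cell markers that the rule did not use (Cd3e, Cd3d, Cd3g, Trac and Trbc2) summed to 6998 to 7611 CPM in members of accepted grafts at 3 weeks and to 5714 and 7255 in those of rejecting grafts. Myeloid markers summed to 94.3 to 268 and to 125 and 401, with 1 of 11 at 0 in rejecting members. B cell markers summed to 274 to 451 and to 145 and 158, with 3 of 7 at 0 in rejecting members. NK cell markers summed to 355 to 719 in members and 251 to 639 in triple-negative cells of accepted grafts, and CD4 T cell markers to 145 to 175 and 80.9 to 131. Between these classes of accepted grafts at 3 weeks, 2 of 9 tested myeloid markers were called lower (Lyz2 and C1qa, neither held), 1 of 3 NK cell markers higher (Fcer1g, not held) and 1 lower (Tyrobp, held), 1 of 3 CD4 T cell markers higher (Ctla4, held), and none of 6 B cell markers. In rejecting grafts no marker of these 4 lists was called. Leaving out every cell with a UMI of any of 9 markers of other cells (Cd79a, Ms4a1, Lyz2, C1qa, C1qb, Csf1r, Ncr1, Trdc and Cd4) kept 3262 and 336 members. Of 167 named results 162 then kept direction and call, 4 lost the call, 1 gained it and none reversed, and those 5 are given beside their genes. In the CD45+ matrix of the rejecting grafts none of 6341 myeloid cells met the rule, at a median of 2442 UMIs per cell. These cells were taken outside the CD8 matrix and without a Cd3e, Cd3d or Cd3g UMI, which left out mixed cells beforehand. Their count therefore cannot show how often mixed cells met the rule. Of those myeloid cells, 0.71% had a Pdcd1 UMI and 0.536% a Lag3 UMI, although 34.3% had a Havcr2 UMI. Another 200 of the 705 cells that met the rule in that matrix lay outside the CD8 matrix and were not analysed here.

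Stretches of 250 bases before the transcription start are shown for 2 of the genes that chose the cells and for Gzmb, a granzyme gene whose change in members differed between rejecting grafts and accepted grafts at 3 weeks. They were read from RefSeq promoters on GRCm38.p6, which corresponds to the mm10 build named in the submitters' processing notes. Capitals mark matches, on either strand, to TGANTCA (the AP-1 site), TGTGGT (a RUNX core) or GGAAA (an NFAT core). AP-1, NFAT and RUNX proteins are transcription factors that act downstream of T cell activation or in CD8 T cell differentiation.
Pdcd1, chr1:94052554-94052803, minus strand: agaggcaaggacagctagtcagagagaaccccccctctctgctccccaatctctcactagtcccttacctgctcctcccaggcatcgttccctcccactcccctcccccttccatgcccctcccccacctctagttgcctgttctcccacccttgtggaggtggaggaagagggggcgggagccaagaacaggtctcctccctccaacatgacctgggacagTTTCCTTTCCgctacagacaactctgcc
Havcr2, chr11:46454681-46454930, plus strand: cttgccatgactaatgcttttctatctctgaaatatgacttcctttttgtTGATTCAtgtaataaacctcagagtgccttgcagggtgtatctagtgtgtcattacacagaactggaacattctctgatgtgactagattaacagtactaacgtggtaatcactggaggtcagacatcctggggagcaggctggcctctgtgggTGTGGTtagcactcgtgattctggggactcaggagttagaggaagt
Gzmb, chr14:56262335-56262584, minus strand: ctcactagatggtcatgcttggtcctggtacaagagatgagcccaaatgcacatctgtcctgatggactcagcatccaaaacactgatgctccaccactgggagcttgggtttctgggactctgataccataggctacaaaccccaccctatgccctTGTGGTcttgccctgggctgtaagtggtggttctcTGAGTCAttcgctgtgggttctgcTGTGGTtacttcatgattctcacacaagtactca
The Pdcd1 stretch held 2 adjoining GGAAA matches, read on the reverse strand, and none of the other motifs. Havcr2 held 1 TGANTCA and 1 TGTGGT match, and Gzmb 1 and 2. Of 32851 promoter stretches of this length, 6.75% held TGANTCA, 14.1% TGTGGT and 55.6% GGAAA. The matches are letters in a window and carry no measurement of binding.

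At equal depth, members made up a larger share of cells with a Cd8a or Cd8b1 UMI in rejecting than in accepted grafts. This rested on the cells taken as the base. With every cell thinned to 1000 UMIs, members made up 5.59%, 6.22%, 5.99%, 4.83% and 6.57% of CD8 cells in the 5 accepted libraries at 3 weeks, a mean of 5.84% ± 0.668 (SD, n = 5). They made up 9.28% and 8.84% in the 2 rejecting libraries, a mean of 9.06% ± 0.311 (SD, n = 2), and 2.43%, 2.57% and 2.59% in the accepted libraries at 1 week, a mean of 2.53% ± 0.0887 (SD, n = 3). The ranges of the 3 groups did not overlap. Since these values chose the members, no test was made. Without thinning the means were 20.3%, 30.9% and 16.1%, and the ranges overlapped: accepted library 1 at 3 weeks reached 29.3% while rejecting library 1 was at 22.8%. After thinning, 1274 of 2184 rejecting cells and 19388 of 22206 accepted cells at 3 weeks kept a Cd8a or Cd8b1 UMI. Of all cells in a library, thinned members were 71 of 1233 and 45 of 951 in rejecting grafts. In accepted grafts at 3 weeks they were 168 of 3469, 241 of 4496, 273 of 5105, 181 of 4277 and 276 of 4859. On that base the shares of these 2 groups overlapped.

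**Figure D1:**
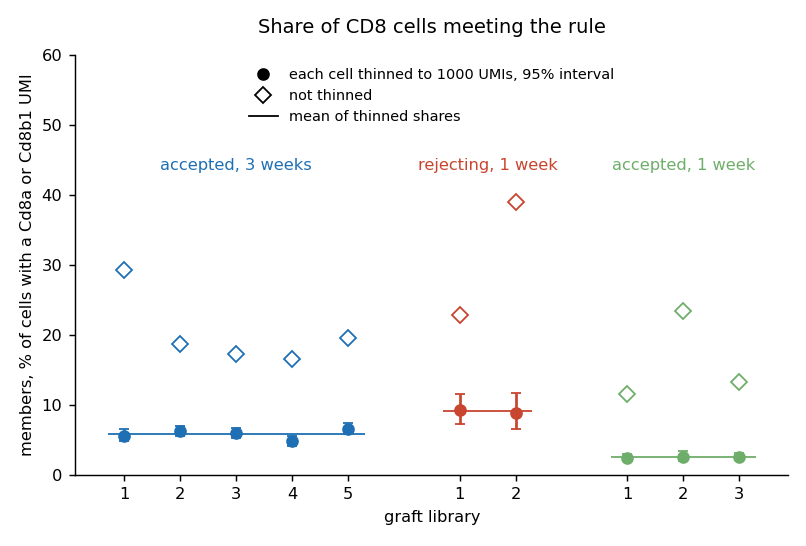
Members as a percentage of cells with a Cd8a or Cd8b1 UMI in each graft library. Filled points are shares after thinning each cell to 1000 UMIs, with 95% Clopper-Pearson intervals that cover counting error only; open diamonds are unthinned shares and lines the means. Thinned shares lie at 4.83% to 6.57% in accepted grafts at 3 weeks, 8.84% and 9.28% in rejecting grafts and 2.43% to 2.59% in accepted grafts at 1 week.

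Outside the grafts the rule was rarely met, with 1 exception. Unthinned, it was met by 27 cells of accepted recipients' spleen at 1 week, 2 at 3 weeks, 3 of rejecting recipients' spleen and 0 of 4500 CD8 cells of naive spleen. After thinning, the 0 of 3434 naive cells allow a share of up to 0.0874%. The matrix labelled accepted kidney at 24 weeks held 3 such cells, while the matrix labelled accepted recipients' spleen at 24 weeks held 653. The thinned share of the latter was 3.33% ± 0.207 (SD, n = 3). Spleen and kidney thus stood in the opposite order from weeks 1 and 3, and neither 24-week matrix enters a comparison here. In the study's ELISPOT at 24 weeks, graft CD8 T cells made less interferon-γ to donor antigen than CD8 T cells of recipients' spleen. That assay reads secreted protein and not the RNA of the rule. Whether the 2 labels were exchanged was not tested.

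Lag3 was the usual partner of Pdcd1. In accepted grafts at 3 weeks 3440 of the 4258 members had Lag3 alone, 473 Havcr2 alone and 345 both. In rejecting grafts the counts were 301, 126 and 78 of 505. Havcr2 was present in 19.2% ± 3.01 (SD, n = 5) of members in accepted grafts and in 32.1% and 46.6% of members in the 2 rejecting libraries, above the highest accepted library at 22.1%. The accepted libraries at 1 week lay between, at 23.0%, 24.8% and 29.8%. These shares are of members as found, without thinning, and members of rejecting library 2 had the most UMIs per cell of the rejecting pair. Many members met the rule by a narrow margin. In accepted grafts 1776 had only 1 Pdcd1 UMI and 1318 of these also had only 1 UMI of Lag3 and Havcr2 together, and in rejecting grafts the numbers were 196 and 127. The median was 2 Pdcd1 UMIs in both, and the highest 11 and 16. Just outside the rule lay 8830 and 571 PD-1-only cells, 1949 and 233 CD8 cells with Lag3 or Havcr2 but no Pdcd1, and 66 and 51 cells that lacked only a Cd8a or Cd8b1 UMI.

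Lag3 and Havcr2 were detected slightly more often beside Pdcd1 than without it. In cells thinned to 1000 UMIs, Lag3 or Havcr2 was found in 14.3% to 19.6% of Pdcd1-positive CD8 cells of the accepted libraries at 3 weeks and in 11.7% to 17.5% of Pdcd1-negative ones. The shares were 24.1% and 25.0% against 21.7% and 22.8% in rejecting grafts. The Pdcd1-positive share was the higher in all 7 libraries. In rejecting grafts the shares rest on 295 and 180 Pdcd1-positive and 470 and 329 Pdcd1-negative cells. These genes chose the members, so no test was made. Whether the small gaps in rejecting grafts exceed counting error was not tested.

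Members of accepted grafts at 3 weeks differed broadly from triple-negative cells. Of 11139 genes tested, 522 were higher in members (4.69%) and 405 lower (3.64%), and 327 and 217 of them held after matching for depth. Higher in members were 10 of 18 exhaustion-linked transcription factors and 6 of 14 cytokines and chemokines, Ifng among them. Lower were Gzmb, Gzma and the residency integrins Itgae and Itga1.

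Of 18 exhaustion-linked transcription factors tested, 10 were higher, all of them held, and 2 lower, with a median difference of 0.31 against 0.01 over all genes. Nr4a2, an orphan nuclear receptor induced by antigen receptor signaling, stood at 545, 556, 609, 646 and 676 CPM in members against 288, 386, 364, 356 and 470 in triple-negative cells. The groups did not overlap, and the difference was 0.71 ± 0.04 (adjusted p = 9.7e-27). Tox, which drives the chromatin program of exhausted CD8 T cells, stood at 476, 356, 341, 375 and 404 against 322, 254, 231, 265 and 272, a difference of 0.54 ± 0.05 (adjusted p = 8.9e-16). Every member value for Tox lay above every triple-negative value. Its relative Tox2 was higher by 1.24 ± 0.24 and the Notch effector Rbpj by 0.56 ± 0.04. Maf, a factor tied to IL-10 and inhibitory receptor expression, was lower by 0.70 ± 0.13 on the log2 scale.

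Of 14 other inhibitory receptors tested, 4 were higher and 2 lower. Ctla4, which competes with CD28 for its ligands, stood at 161, 170, 138, 156 and 157 CPM in members against 74.1, 124, 98.8, 86.5 and 84.8, a difference of 0.76 ± 0.06 (adjusted p = 8.2e-18). Cd200r1, the receptor of CD200, was higher by 0.83 ± 0.08, and Cd160 was lower by 0.50 ± 0.07 on the log2 scale. Among 11 costimulatory receptors 6 were higher and 4 lower. Tnfrsf9, which encodes 4-1BB and marks recent antigen engagement, stood at 56.1, 85.9, 88.7, 72.3 and 116 against 23.9, 33.9, 40.1, 38.2 and 64.8. It was higher in each library by 1.08 ± 0.08 in the fit (adjusted p = 7.5e-20), although the 2 classes overlapped between libraries. Cd7 and the SLAM receptor Slamf7 were lower by 0.72 and 0.75 on the log2 scale.

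Cytotoxic granule genes split. Of 14 tested, 4 were higher and 4 lower, and the median difference was -0.02. Gzmb, the serine protease that triggers apoptosis in target cells, stood at 499, 753, 788, 622 and 645 CPM in members and at 858, 1160, 1266, 1033 and 1334 in triple-negative cells. No member value reached the lowest triple-negative value, and the difference was -0.78 ± 0.03 (adjusted p = 2e-36) and -0.86 ± 0.03 after matching. Gzma, a tryptase of the same granules, stood at 110, 69.2, 466.3, 183 and 166 against 262, 321, 854, 465.6 and 644, lower in every library, with a difference of -1.40 ± 0.08 (adjusted p = 2.7e-27). Gzmk was lower by 0.66 ± 0.09 on the log2 scale. Prf1, the perforin that opens the target membrane, moved the other way. It stood at 158, 171, 151, 146 and 168 against 127, 111, 118, 125 and 132, without overlap, a difference of 0.36 ± 0.05 (adjusted p = 1.5e-07).

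Of 14 cytokines and chemokines 6 were higher and 1 lower, and all 7 held. Ifng, which encodes interferon-γ, stood at 239, 215, 224, 228 and 235 CPM in members against 198, 173, 159, 202 and 167, a difference of 0.35 ± 0.06 (adjusted p = 1.1e-05). The classes did not overlap. The inflammatory chemokine genes Ccl3 and Ccl4 were higher by 0.57 ± 0.07 (in 4 of 5 libraries) and 0.40 ± 0.03 (in 5 of 5), and Spp1 (osteopontin) by 1.22 ± 0.19. Of 12 cytokine receptors 6 were higher and 1 lower. Il2rb (CD122, the shared β chain of the IL-2 and IL-15 receptors) stood at 723, 773, 870, 820 and 872 against 425, 530, 598, 544 and 616, without overlap and higher by 0.59 ± 0.03 (adjusted p = 5.4e-35).

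Of 13 tested residency genes, which retain T cells in tissue, 2 were higher and 6 lower, and all 8 held. The median difference of the list was -0.11, and -0.035 after matching. Itgae, the CD103 integrin chain that binds E-cadherin on epithelium, stood at 208, 194, 202, 173 and 193 CPM in members against 325, 348, 325, 294 and 309. The classes did not overlap and the difference was -0.71 ± 0.04 (adjusted p = 2.5e-25). Itga1 was lower by 0.34 ± 0.04 on the log2 scale and the chemokine receptor Cxcr3 by 0.61 ± 0.07, whereas the difference for Cxcr6 was 0.03 ± 0.03 (adjusted p = 0.59). Rgs2, a regulator of G protein signaling, was higher by 0.56 ± 0.04. Of 14 naive and stem-like genes 5 were lower and none higher, among them S1pr1, which guides egress to lymph (-1.11 ± 0.22), Klf2 (-0.53 ± 0.08) and Il7r (-0.46 ± 0.05). Fgl2, a secreted mediator of regulatory CD8 T cells, differed by -0.08 ± 0.04 (adjusted p = 0.26), and of the 5 tested genes of the study's CD8 regulatory list 1 was higher and 1 lower.

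Of 9 tested NK receptors and terminal effector genes 6 were higher and none lower, 5 held, and the median difference was 0.42, or 0.30 after matching. Among them the lectin-like receptor genes Klre1, Klrc1 and Klrd1 were higher by 0.67 ± 0.12, 0.46 ± 0.05 and 0.42 ± 0.04. Of 18 antigen receptor signaling genes 5 were higher (5 held) and 3 lower (0 held). Of 14 immediate early genes 1 was higher (1 held) and 2 lower (1 held). Of 12 glycolysis genes 2 were higher (1 held), and of 14 actin genes 2 were higher (2 held) and 2 lower (2 held). Of 14 interferon-stimulated genes 6 were lower but 2 held, and of 10 heat shock genes 8 were lower and 5 held. Proliferation genes did not distinguish the classes: 1 of 17 was lower and none held, and Mki67 differed by 0.20 ± 0.13 (adjusted p = 0.47). Outside the lists, the genes with the largest changes included the oxidase subunit Ncf1 (1.10 ± 0.09), the cAMP-responsive Crem (0.82 ± 0.06), Rgs16 (0.78 ± 0.09), Ly6c2 (-1.10 ± 0.09) and Ly6a (-0.81 ± 0.06). The 3 tested hemoglobin genes were called lower, but 1 triple-negative cell of library 2 carried 464 of the 481 hemoglobin UMIs of its class, and these genes could not be tested after matching.

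In rejecting grafts fewer genes were called between members and triple-negative cells, with 2 libraries and 505 members against 5 and 4258 in accepted grafts. The counts of calls therefore do not compare how far the classes differed. Of 11139 tested, 107 were higher (0.961%) and 74 lower (0.664%), and 24 and 5 of these held after matching. The 181 calls fell to 61 without rejecting library 1 and to 110 without library 2, and the overlap below was not recomputed on those. With DESeq2 the split turned to 47 higher and 58 lower. Of the 24 genes that held as higher, 23 had also held as higher in accepted grafts at 3 weeks, which is 95.8% of the rejecting list and 7.03% of the accepted list of 327. Of the 5 that held as lower, 2 had held as lower there (40.0% and 0.922%). Without the matched test, 50 of the 107 higher calls (46.7%) and 36 of the 74 lower calls (48.6%) were shared with the 522 and 405 of accepted grafts. The 36 include the hemoglobin genes Hba-a1 and Hbb-bs. As in accepted grafts, 1 triple-negative cell carried most of these UMIs, 485 of 489 in rejecting library 1. The comparisons share no libraries but come from 1 joint fit with a shared filter and spread, so the lists are not independent. The 327 are out of all 11139 genes tested. Among the 23 were Tnfrsf9, Icos, Ccl3, Ifng, Nr4a2, Tox, Rel, Rgs2, Rgs16, Crem, Ubash3b and Cblb, and 15 of the 23 held in accepted grafts at 1 week as well.

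Levels in the 2 rejecting libraries differed from each other, but the classes kept their order within each. Tnfrsf9 stood at 198 and 107 CPM in members against 78.2 and 38.8, a difference of 1.35 ± 0.23 (adjusted p = 2.7e-05); without library 1 it was 1.47 (adjusted p = 0.07). Nr4a2 stood at 459 and 147 against 272 and 56.4, a difference of 0.82 ± 0.16 (adjusted p = 0.00055). Tox stood at 1500 and 1127 against 924 and 962, a difference of 0.44 ± 0.09 (adjusted p = 0.0012), which was 0.23 without library 1 (adjusted p = 0.47). All 3 genes were thus higher in members of both libraries. Ccl3 stood at 183 and 157 against 103 and 24.7, a difference of 1.27 ± 0.26 (adjusted p = 0.0012), which was 0.83 without library 2 (adjusted p = 0.27). Ifng stood at 271 and 176 against 134 and 95.1, a difference of 0.76 ± 0.22 (adjusted p = 0.047) that missed the threshold without library 1 (0.89, adjusted p = 0.17), without cells carrying a marker of other cells (0.64, adjusted p = 0.28), and also when accepted library 4 or 5 was left out of the joint fit (adjusted p = 0.067 and 0.061). Rgs16 and Rgs2 were higher by 1.22 ± 0.19 and 1.06 ± 0.19. Rel, an NF-κB subunit, was higher by 1.12 ± 0.17 and by 0.78 without library 1 (adjusted p = 0.35).

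By list, 3 of 18 exhaustion-linked transcription factors were higher in rejecting members and 2 of them held, and 4 of 14 granule genes were higher but 0 held. Of 14 cytokines and chemokines 3 were higher (2 held) and 2 lower (0 held). Both of the 2 costimulatory receptors called higher of 11 held, and none of 14 other inhibitory receptors was called. Of 14 naive and stem-like genes 2 were lower (1 held), and of 13 residency genes 1 was higher and held. Differences for the genes the study follows were 0.48 ± 0.15 for Prf1 (adjusted p = 0.07), 0.49 ± 0.11 for Il2rb (adjusted p = 0.0041, 0.055 after matching and 0.33 without library 2), -1.12 ± 0.34 for Itgae (adjusted p = 0.075), -0.35 ± 0.12 for Itga1 (adjusted p = 0.12), -0.20 ± 0.12 for Cxcr6 (adjusted p = 0.54) and -0.18 ± 0.21 for Fgl2 (adjusted p = 0.83).

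**Figure D2:**
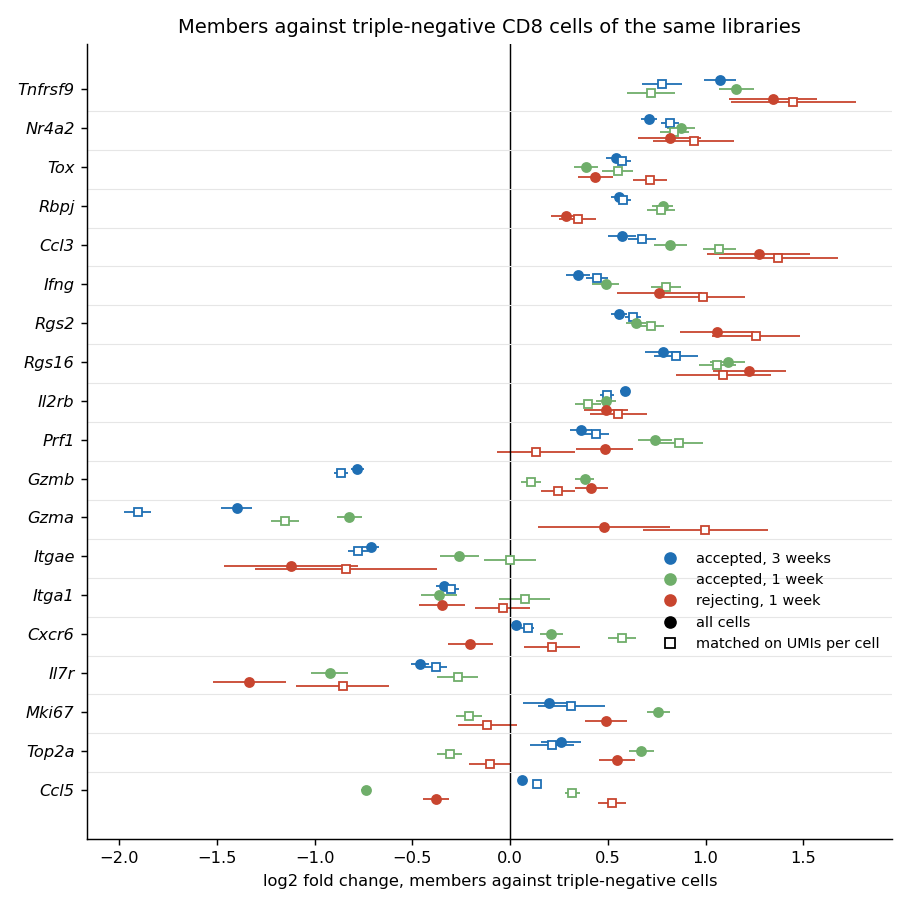
Log2 fold changes ± SE of members against triple-negative cells of the same libraries (horizontal axis) for 19 genes in accepted grafts at 3 weeks (blue, 5 libraries), accepted grafts at 1 week (green, 3) and rejecting grafts at 1 week (red, 2). Filled circles use all cells and open squares classes matched on UMIs per cell: Tnfrsf9, Nr4a2 and Tox stay above 0 throughout, Gzmb lies below 0 in blue alone, and Mki67, Top2a and Ccl5 cross 0 on matching in green and red.

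Fitted differences of proliferation genes and Ccl5 changed direction on matching for depth. With classes set before thinning, the share of thinned cells with proliferation genes was higher in members of the 1-week grafts. Of 17 proliferation genes 6 were called higher in rejecting members with a median of 0.49, and all 17 in accepted members at 1 week with a median of 0.57, but after matching none held and the medians were -0.33 and -0.29. Mki67, the marker of cycling cells, differed by 0.49 ± 0.11 in rejecting grafts and by -0.12 ± 0.15 after matching, and at 1 week in accepted grafts by 0.76 ± 0.06 and -0.21 ± 0.06. Top2a went from 0.55 to -0.10 and from 0.67 to -0.31. Without rejecting library 1 the unmatched differences were 0.44 for Mki67 (adjusted p = 0.077) and 0.32 for Top2a (adjusted p = 0.067). With each cell thinned to 1000 UMIs, at least 2 proliferation genes were found in 26.0% and 81.4% of rejecting members against 22.6% and 58.0% of triple-negative cells, in 51.8%, 39.0% and 70.5% against 29.5%, 23.7% and 54.9% in accepted grafts at 1 week, and in 11.3% to 14.0% against 12.8% to 15.6% in accepted grafts at 3 weeks. These shares were higher in members of all 5 libraries at 1 week. Ccl5 went from -0.38 ± 0.07 to 0.52 ± 0.07 in rejecting grafts and from -0.74 ± 0.02 to 0.32 ± 0.04 in accepted grafts at 1 week, each called in both directions. In accepted grafts at 3 weeks 7 of the 927 called genes changed sign on matching, against 32 of 181 in rejecting grafts and 683 of 1969 in accepted grafts at 1 week.

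Accepted grafts at 1 week, the same week as the rejecting grafts, gave 2057 cells that met the rule. Against triple-negative cells 1466 of 9886 genes were higher (14.8%) and 503 lower (5.09%), of which 211 and 48 held. With trimmed-mean (TMM) scaling in place of plain totals the split was 866 and 791. Held changes included Tnfrsf9 (1.16 ± 0.09), Nr4a2 (0.87 ± 0.07), Tox (0.39 ± 0.06), Ccl3 (0.82 ± 0.08), Ifng (0.49 ± 0.07, but -0.030 with classes set after thinning), Prf1 (0.74 ± 0.09), Il2rb (0.49 ± 0.05), Rgs2 (0.64 ± 0.05), Rgs16 (1.11 ± 0.09), Klf2 (-1.46 ± 0.07) and S1pr1 (-1.16 ± 0.11). Of 13 naive and stem-like genes 13 were lower and 11 held. Of 18 exhaustion-linked factors 12 were higher and 10 held.

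Gzmb, lower in members of accepted grafts at 3 weeks, was not lower in members of rejecting grafts. There it stood at 1101 and 1971 CPM in members against 1092 and 1184 in triple-negative cells, a difference of 0.42 ± 0.08 (adjusted p = 0.00062). Without library 2 the difference was 0.01 (adjusted p = 0.99), and after matching it was 0.25 ± 0.09 (adjusted p = 0.28). In accepted grafts at 1 week Gzmb stood at 757, 990 and 774 against 634, 661 and 629, a difference of 0.38 ± 0.05 (adjusted p = 2.5e-07) that fell to 0.11 ± 0.05 after matching (adjusted p = 0.25). Members of the 1-week grafts, rejecting or accepted, were at or above triple-negative cells in each library, and those of accepted grafts at 3 weeks were below them in each.

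The difference of these differences was tested in the joint fit. Rejecting minus accepted grafts at 3 weeks, 27 of 11139 genes were higher (0.242%) and 29 lower (0.26%), and 6 held after matching. These 56 calls fell to 28 without rejecting library 1 and to 33 without library 2. With TMM scaling the split was 33 and 21. For Gzmb the difference between models was 1.20 ± 0.09 (adjusted p = 9.9e-20), 1.11 ± 0.09 after matching, and 0.79 to 1.52 when each library in turn was left out. With accepted grafts at 1 week in place of 3 weeks it was 0.01 (adjusted p = 1). Gzma differed by 1.88 ± 0.33 (adjusted p = 0.00013) and by 2.90 ± 0.33 after matching, but its call was lost with DESeq2 (2.14, adjusted p = 0.052) and with classes set after thinning to 1000 UMIs (0.23, adjusted p = 0.97). It stood at 126 and 207 against 62.5 and 166 in rejecting grafts, where its own difference of 0.48 ± 0.34 was not called (adjusted p = 0.66), and it was lower by 0.82 ± 0.06 on the log2 scale in accepted grafts at 1 week. Maf differed by 1.61 ± 0.37 (adjusted p = 0.012), a call lost without rejecting library 1 (2.77, adjusted p = 0.48), without library 2 (1.45, adjusted p = 0.064) and without cells carrying a marker of other cells (0.88, adjusted p = 0.68). Trbc2, a constant segment of the antigen receptor, differed by -0.33 ± 0.07 (adjusted p = 0.0018, and 0.42 without rejecting library 1). Ccl5 differed by -0.44 ± 0.07 but by 0.38 after matching. Maf and Ccl5 both changed direction with accepted grafts at 1 week in place of 3 weeks.

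For most of the genes above the change did not measurably differ between models. The difference between models was 0.12 ± 0.16 for Prf1 (adjusted p = 0.89), 0.42 ± 0.23 for Ifng (adjusted p = 0.62), -0.10 ± 0.10 for Tox (adjusted p = 0.85), -0.10 ± 0.12 for Il2rb (adjusted p = 0.87), -0.11 ± 0.21 for Fgl2 (adjusted p = 0.95), -0.41 ± 0.34 for Itgae (adjusted p = 0.81), -0.01 ± 0.12 for Itga1 (adjusted p = 1) and -0.23 ± 0.12 for Cxcr6 (adjusted p = 0.55). With 2 rejecting libraries this test recovered 25% of simulated differences of 1 on the log2 scale. The simulation gave every gene the same spread and changed only genes averaging at least 50 CPM. It therefore does not speak for single genes or for genes below that level. The SEs above run from 0.10 for Tox to 0.34 for Itgae, so the size that could have been missed differs by gene.

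**Figure D3:**
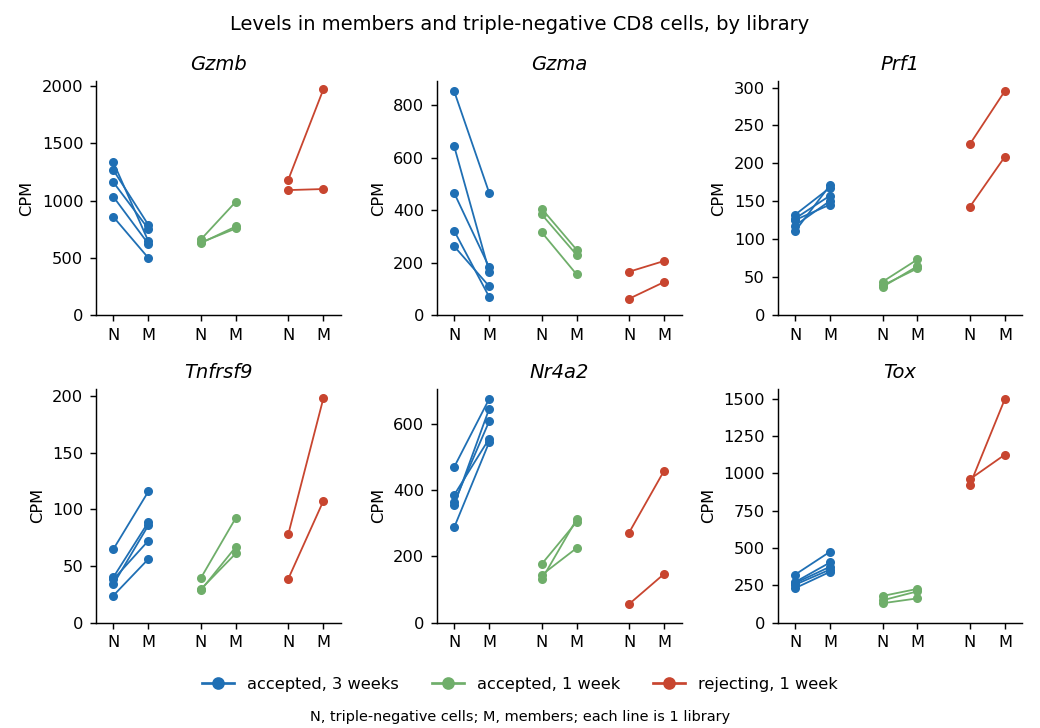
CPM (vertical axes, each from 0) in triple-negative cells (N) and members (M), with 1 line per library, in accepted grafts at 3 weeks (blue), accepted grafts at 1 week (green) and rejecting grafts (red). Gzmb falls from N to M in all 5 blue libraries, from 858 to 1334 down to 499 to 788, and rises or stays level elsewhere, while Prf1, Tnfrsf9, Nr4a2 and Tox rise from N to M in every library.

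Against PD-1-only cells, the nearest class, members of accepted grafts at 3 weeks had 79 genes higher (0.709% of 11139) and 48 lower (0.431%), of which 53 and 28 held. With DESeq2 the split was 27 and 32. Of 14 cytokines and chemokines 7 were higher and none lower. Ccl3 stood at 302, 162, 165, 145 and 124 CPM in members against 151, 114, 119, 125 and 89.8, higher in each library by 0.59 ± 0.07 in the fit (adjusted p = 8.1e-11). Spp1 was higher by 1.23 ± 0.17, Ifng by 0.30 ± 0.06, Ccl5 by 0.19 ± 0.02, Cd200r1 by 0.53 ± 0.07, Prf1 by 0.38 ± 0.05 and Gzma by 0.70 ± 0.09. Of 18 exhaustion-linked factors 6 were higher, with Tox at 0.19 ± 0.05 (adjusted p = 0.0083, and 0.21 without library 5). Gzmb stood at 499, 753, 788, 622 and 645 in members against 707, 824, 945, 780 and 854 in PD-1-only cells, lower in each library, with a difference of -0.32 ± 0.03 (adjusted p = 2.6e-12). PD-1-only cells thus lay between triple-negative cells and members for Gzmb in each library, but not for Gzma, which was lower in PD-1-only cells than in members in 4 of 5 libraries. Il2rb differed by 0.21 ± 0.02, Cxcr6 by 0.16 ± 0.02, Itgae by -0.22 ± 0.04, Itga1 by -0.16 ± 0.04 (adjusted p = 0.15 after matching and 0.10 without library 2), Il7r by -0.40 ± 0.05 and Fgl2 by 0.01 ± 0.04 (adjusted p = 0.96). Accepted library 1 had more members (985) than PD-1-only cells (979), unlike the other 4.

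In rejecting grafts 16 genes were higher in members than in PD-1-only cells (0.144%) and 11 lower (0.0988%), of which 4 and 2 held. DESeq2 gave 7 and 3. Those that held as higher were Maf, Ccl5, Nfkbia and Hsp90aa1, named after their values were seen. Maf stood at 86.6 and 15.0 CPM against 32.6 and 1.31, a difference of 1.64 ± 0.34 (adjusted p = 0.0051) that was not called without library 1 (3.47, adjusted p = 0.18), without library 2 (1.41, adjusted p = 0.050) or without cells carrying a marker of other cells (0.86, adjusted p = 0.80). The chaperone gene Hsp90aa1 was higher by 0.49 ± 0.07, and by 0.39 without library 2 (adjusted p = 0.17). Ccl5 was higher by 0.29 ± 0.06, and by 0.28 without library 1 (adjusted p = 0.65). Prf1 stood at 209 and 296 against 164 and 200, a difference of 0.48 ± 0.12 (adjusted p = 0.039, 0.33 after matching, 0.70 without library 2, 0.55 without cells carrying a marker of other cells and 0.055 without accepted library 5 in the joint fit). Gzmb (0.21 ± 0.07) was called only without library 1 (0.31, adjusted p = 0.010), and Tox (0.19 ± 0.08) without library 2 (0.67, adjusted p = 1.8e-09) and after matching (0.32, adjusted p = 0.011). Not called were Gzma (-0.05 ± 0.24), Fgl2 (0.10 ± 0.18), Il2rb (0.06 ± 0.08), Itgae (0.25 ± 0.37), Itga1 (-0.25 ± 0.10), Cxcr6 (-0.07 ± 0.10) and Ifng (-0.09 ± 0.15). Ifng depended on the library and on depth. It differed by 1.01 without library 2 and by -0.75 without library 1, and matching on UMIs per cell turned it to higher in members.

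Among the members themselves, those with Havcr2 were compared with those with Lag3 alone. In accepted grafts at 3 weeks 80 of 8182 genes were higher in the 818 Havcr2 members (0.978%) and 51 lower (0.623%), and 42 and 19 held. The split was 62 and 64 with TMM scaling and 21 and 7 with DESeq2. In rejecting grafts 21 were higher in the 204 Havcr2 members (0.257%) and 30 lower (0.367%), and 7 and 5 held. There the split was 17 and 36 with TMM scaling and 4 and 4 with DESeq2. Markers of other cells were among the lower genes and did not hold: the B cell marker Ighm stood at 91.8 and 113.5 CPM against 162 and 196 (-0.79 ± 0.19, adjusted p = 0.023), and the myeloid marker Apoe at 59.4 and 1.58 against 208 and 4.73 (-1.78 ± 0.41, adjusted p = 0.017, and 0.00 after matching). Of 2 B cell and 5 myeloid markers tested these were the only ones called. In accepted grafts 1 of 2 tested NK cell markers was lower and the 1 tested CD4 T cell marker was higher, and both held. Without cells carrying a marker of other cells, 127 Havcr2 and 209 Lag3-only members of rejecting grafts remained, and 24 genes were called higher and 27 lower. Prf1, Gzmb, Ccl4, Tcf7 and Slamf6 were called there in the same directions as with all cells. Prf1, Ccl4 and Ccl5 held as higher in both models, together with Ccl1, named after its values were seen. For Ccl5 the rejecting libraries went opposite ways, at 3441 and 183 CPM in Havcr2 members against 2199 and 241 in Lag3-only members, a difference of 0.41 ± 0.10 (adjusted p = 0.020). These 4 genes make up 9.52% of the accepted list and 57.1% of the rejecting list.

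Prf1 was higher in the Havcr2 members of every library. In accepted grafts it stood at 252, 253, 229, 199 and 276 CPM in Havcr2 members against 137, 147, 124, 134 and 138 in Lag3-only members, without overlap, a difference of 0.84 ± 0.08 (adjusted p = 1.6e-11). In rejecting grafts it stood at 303 and 443 against 159 and 148, a difference of 1.38 ± 0.15 (adjusted p = 5.5e-09), which was 0.93 without library 2 (adjusted p = 0.15). Gzmb stood at 532, 874, 1003, 785 and 708 against 492, 717, 716, 586 and 627 in accepted grafts, higher in each library by 0.30 ± 0.05 in the fit (adjusted p = 8.2e-06), though by 0.21 ± 0.06 after matching (adjusted p = 0.11). In rejecting grafts it stood at 1480 and 2581 against 899 and 1361, a difference of 0.86 ± 0.07 (adjusted p = 2.8e-14) that held. In both models Havcr2 members thus had more Gzmb and Prf1 RNA than Lag3-only members in each library. In accepted grafts their Gzmb still lay below that of the triple-negative cells of the same library in all 5.

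Chemokine genes followed. Ccl4 stood at 2308, 1000, 1185, 999 and 1036 CPM in Havcr2 members against 1259, 778, 839, 778 and 678 in accepted grafts, a difference of 0.59 ± 0.05 (adjusted p = 9.1e-16), and at 562 and 224 against 188 and 103 in rejecting grafts, a difference of 1.35 ± 0.17 (adjusted p = 1.5e-07). In accepted grafts 6 of 11 cytokines and chemokines were higher and 1 lower, with Ccl3 at 0.90 ± 0.09, Ifng at 0.58 ± 0.08 and Ccl5 at 0.42 ± 0.03. In rejecting grafts 4 of 11 were higher and 1 lower, and Ifng was not called (0.61 ± 0.18, adjusted p = 0.11). Tnfrsf9 was higher by 0.72 ± 0.11 in accepted grafts and by 1.03 ± 0.20 in rejecting grafts (adjusted p = 0.066 after matching and 0.27 without library 1). Accepted Havcr2 members also had more Zeb2 (0.84 ± 0.15), a factor of terminal effector cells, Lgals1 (0.65 ± 0.05) and Il2rb (0.25 ± 0.05), and less Il7r (-0.83 ± 0.10), Itgae (-0.51 ± 0.10) and Itga1 (-0.29 ± 0.07, adjusted p = 0.29 after matching, 0.11 without library 2 and 0.062 without library 5). Gzma was higher by 1.63 ± 0.22 but by 0.55 after matching (adjusted p = 0.49), while Tox (0.04 ± 0.07), Cxcr6 (0.11 ± 0.04) and Fgl2 (0.06 ± 0.06) were not called.

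Tcf7, which encodes TCF-1 and marks stem-like T cells that renew the exhausted pool, was nearly absent from the Havcr2 members of rejecting grafts. Of 9 tested naive and stem-like genes 2 were lower there, Tcf7 and Slamf6, and both held. The other 7 were not called, among them Lef1 (0.78 ± 0.50), Ccr7 (0.31 ± 1.06) and Klf2 (0.22 ± 0.79). Tcf7 stood at 5.40 and 1.58 CPM against 43.3 and 66.2 in Lag3-only members. These are 2 UMIs against 57, a ratio of 0.042 (95% counting interval 0.00496 to 0.159). The fitted difference was -4.56 ± 0.66 (adjusted p = 3.9e-06), and -2.98 without library 2 (adjusted p = 0.37). Slamf6, a surface receptor that stem-like T cells share with TCF-1, stood at 21.6 and 12.6 against 110 and 56.8. It had 12 UMIs against 74, a ratio of 0.194 (0.0959 to 0.3595), with an adjusted p of 0.0025 that became 0.071 without library 1 and 0.15 without library 2. Aff3, a nuclear scaffold protein gene, stood at 10.8 and 26.8 against 139 and 173 (adjusted p = 7e-09), and the cell cycle gene Ccnd3 was lower by 1.09 ± 0.17 on the log2 scale. In accepted grafts Tcf7 stood at 8.99, 4.36, 7.28, 5.93 and 11.3 against 16.1, 7.89, 12.7, 9.80 and 7.84, with overlap, and the difference of -0.52 ± 0.35 was not called (adjusted p = 0.77). These were 20 UMIs against 113, a ratio of 0.676 (95% counting interval 0.398 to 1.09). Tcf7 was thus low in both classes of accepted members. Slamf6 was not called there either (-0.07 ± 0.40). The difference between models in these changes was not tested. Tox was lower in rejecting Havcr2 members by 0.39 ± 0.09 on the log2 scale (adjusted p = 0.017) but did not hold (-0.34 after matching, adjusted p = 0.27). Its call was also lost without library 1. Not called in rejecting grafts were Gzma (0.82 ± 0.48, although 3.58 without library 2 with an adjusted p of 0.00079), Fgl2 (-0.17 ± 0.25), Il2rb (-0.01 ± 0.12), Itgae (-1.56 ± 0.63), Itga1 (0.04 ± 0.15) and Cxcr6 (0.14 ± 0.13).

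**Figure D4:**
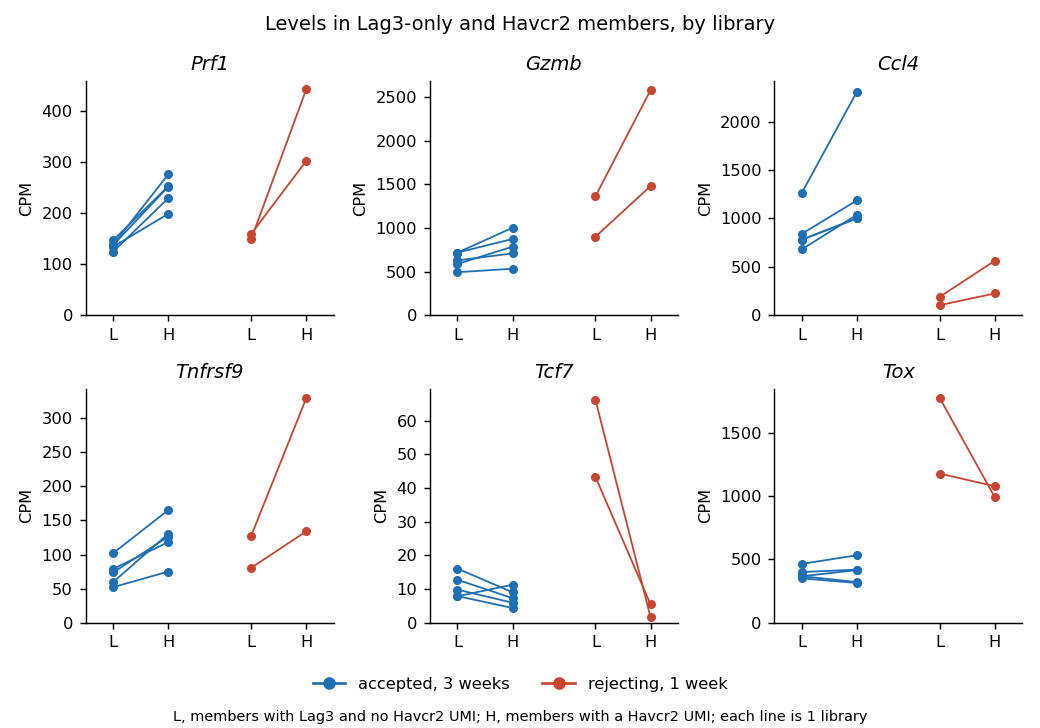
CPM (vertical axes, each from 0) in members with Lag3 and no Havcr2 UMI (L) and members with a Havcr2 UMI (H), with 1 line per library, in accepted grafts at 3 weeks (blue) and rejecting grafts (red). Prf1, Gzmb, Ccl4 and Tnfrsf9 rise from L to H in every library, and Tcf7 falls from 43.3 and 66.2 to 5.40 and 1.58 in the rejecting libraries.

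Set directly against each other, members of the models differed in much of their RNA. This comparison is between libraries, so it has no library block, was not repeated on matched cells, and takes in each library's own level. Of 9893 genes 3594 were higher in rejecting members (36.3%) and 1488 lower (15.0%), and the median of all genes was 0.27 with plain totals and -0.01 with TMM scaling, which gave 2572 and 2310. Differences below are best read against that median. Markers of other cells differed as well. Lower in rejecting members were 3 of 4 tested B cell, 2 of 3 NK cell, 1 of 2 gamma-delta T cell and 1 of 1 kidney genes. Higher were 1 of 7 myeloid and 1 of 1 CD4 T cell markers. NK cell markers summed to 116 and 166 CPM in rejecting members against 355 to 719 in accepted ones. Members of rejecting grafts had higher RNA of all 17 proliferation genes, with a median of 4.62 and Mki67 at 365 and 969 CPM against 12.6 to 28.9, and of 11 of 12 glycolysis genes. Of 18 exhaustion-linked factors 10 were higher and 3 lower, with a median of 0.58, Tox at 1.74 ± 0.14 and Nr4a2 at -1.07 ± 0.29. Naive and stem-like genes were more often higher than lower in rejecting members, 7 against 2 of 13 tested, with a median of 0.82. Granule genes went both ways, 3 of 14 higher and 5 lower with a median of -0.20. Gzmb was higher by 1.23 ± 0.19 and Prf1 by 0.69 ± 0.15 (0.40 without rejecting library 2, adjusted p = 0.072), whereas the granule protein gene Nkg7 (-1.26 ± 0.11), the death ligand gene Fasl (-1.24 ± 0.25) and Cst7 (-1.20 ± 0.16) were lower. Of 14 other inhibitory receptors 5 were higher and 4 lower, with a median of -0.28. Tigit was higher by 1.62 ± 0.28 and Entpd1 (CD39) by 2.01 ± 0.12, and lower were Cd200r1 (-2.01 ± 0.26), Vsir (-1.17 ± 0.18), Cd160 (-1.02 ± 0.24) and Cd244a (-0.67 ± 0.22). Il2ra (CD25) was higher by 3.71 ± 0.24. Also lower were Itgae (-3.42 ± 0.29), Fgl2 (-2.16 ± 0.27), Ccl4 (-2.04 ± 0.28), Cxcr6 (-1.29 ± 0.14) and Il2rb (-0.94 ± 0.13), and Gzma (-0.21 ± 0.52), Ifng (-0.07 ± 0.16) and Itga1 (-0.38 ± 0.18) were not called. Without rejecting library 1, Ifng and Itga1 were called lower (-0.38, adjusted p = 0.027, and -0.81, adjusted p = 4.9e-05). Itga1 was also called lower without cells carrying a marker of other cells (-0.47, adjusted p = 0.045). Against accepted members at 1 week, Mki67 differed by 0.85 (adjusted p = 0.077), Fgl2 by 0.18, Il2rb by 0.26 and Cxcr6 by 0.30, none of them called, and Itga1 by 2.73 (adjusted p = 3.5e-05).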

How the data were processed

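Single-cell RNA sequencing was done by the authors on sorted viable CD45+ cells of kidney allografts and spleens with a 10x 3′ kit, and the submitters' processing notes name Cell Ranger and the mm10 build. The authors filtered cells on UMIs, genes and mitochondrial share and set the CD8 T cells apart. The deposited values are raw UMI counts per gene and cell. The accepted and rejecting matrices were cut to the 19497 genes they share. No doublet caller was run, and 58 cell barcodes were found in more than 1 accepted library at 3 weeks, 26 at 1 week and 0 in rejecting grafts.

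Members and gene lists were chosen with earlier results of these data known, so no list is independent evidence. Named genes were the called genes of largest change in each fixed list, the genes the study follows whether called or not, and, outside the lists, 8 called genes at each end of the ranking by log2 fold change, leaving out genes averaging under 50 CPM and those of mitochondria, ribosomal proteins, immunoglobulins or antigen receptors. The text names those of them that bear on a result.

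UMIs were summed per library and class and tested with edgeR 4.0.16 in R 4.3.3 (glmQLFit and glmQLFTest, plain library totals, filterByExpr, Benjamini-Hochberg adjustment). All classes of the groups compared shared 1 fit. The library was a block since the classes of a library are cells of the same sample. Members of the 2 models were also compared directly, without a block or matching. Pdcd1, Lag3, Havcr2, Cd8a and Cd8b1 chose the classes and were not tested. For matching, equal numbers of cells of both classes were drawn with a fixed seed within each library from bins of 0.25 in log2 UMIs. The class sums held 1874618 to 3790207 UMIs per accepted library at 3 weeks and 533738 and 1272805 in rejecting members. Intervals are exact at 95% and, like the limit of 3 counts used for a share of 0, cover counting error only, since they treat UMIs as independent molecules. On simulated counts the fit recovered 100% of changes of 1 on the log2 scale for accepted grafts at 3 weeks and 50% for rejecting grafts. These counts had the same spread set for every gene, and only genes averaging at least 50 CPM were changed. Alternatives were DESeq2 1.42.0, TMM scaling, no count filter, no block, other class rules, cell filters and leaving out each library. Sequences came from RefSeq promoter tables for GRCm38.p6, which gave Pdcd1, Havcr2 and Gzmb, and Lag3 is named only. Some items are not reported here.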

Additional observations from a re-analysis of the deposited data

Results flagged for a closer look

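Dixon's test was applied to 32 sets of 5 accepted libraries at 3 weeks, and chance marks about 1 in 20 such sets. Gzma in members of library 3, at 466.3 CPM, stood apart from the next library at 183. Ccl4 in library 1 stood apart in Havcr2 members, at 2308, and in Lag3-only members, at 1259. The library is a block in the differences between classes of the same libraries, so its level does not enter those. It does enter the direct comparison of members between models, where Ccl4 differed by -2.04 ± 0.28 and Gzma by -0.21 ± 0.52.

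The change from triple-negative cells to members differed between rejecting grafts at 1 week and accepted grafts at 3 weeks for Gzmb (1.20 on the log2 scale), Gzma (1.88), Maf (1.61), Trbc2 (-0.33) and Ccl5 (-0.44), by edgeR's interaction term. Ccl5 turned to 0.38 after matching and 0.36 on thinning. Gzma lost its call with classes set after thinning (0.23, adjusted p = 0.97) and with DESeq2 (adjusted p = 0.052), as did Maf and Trbc2 after thinning (adjusted p = 0.82 and 0.73). Maf also lost it without either rejecting library and without cells carrying a marker of other cells, and Trbc2 without rejecting library 1 (adjusted p = 0.42). With accepted grafts at 1 week in place of 3 weeks Gzmb differed by 0.01 (adjusted p = 1). On that exchange Maf and Ccl5 changed direction. Against accepted grafts at 3 weeks, model, recipient strain and week cannot be told apart, and against those at 1 week model and strain cannot. Within accepted grafts, Gzmb was lower in members than in triple-negative cells at 3 weeks and not lower at 1 week. The cause was not tested.

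Among the matrices outside the comparisons, the one labelled accepted recipients' spleen at 24 weeks held members at a thinned share of 3.33%, against 0 in naive spleen and 0 in the matrix labelled accepted kidney at 24 weeks. Kidney and spleen stood the other way round at weeks 1 and 3, and whether these labels were exchanged was not tested, so the tissue behind this share is uncertain.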

How the results depend on the processing

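The classes of a library come from the same sample, so the library block is the design and not a choice. Without the replicate block, calls fell from 927 to 126 against triple-negative cells in accepted grafts at 3 weeks, from 1969 to 46 at 1 week, from 131 and 51 to 4 and 4 for Havcr2 members of accepted and rejecting grafts, and to 0 by edgeR for triple-negative cells in rejecting grafts (885 at an unadjusted p under 0.05), PD-1-only cells in accepted (319) and rejecting grafts (435) and the difference between models (686). With DESeq2, which kept the block, these 4 counts were 105, 59, 10 and 36. The number pairs classes within a library by construction.

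DESeq2 gave 28 and 8 calls for Havcr2 members and 762 for accepted grafts at 1 week. Matching on UMIs per cell gave 46 calls in rejecting grafts, 12 against PD-1-only cells, 9 for the difference between models, 73 and 15 for Havcr2 members and 495 at 1 week. Classes set after thinning to 1000 UMIs gave 208, 16, 41, 2, 8 and 121, in the order accepted and rejecting against triple-negative, accepted and rejecting against PD-1-only, difference between models and 1 week. At least 2 Pdcd1 UMIs gave 53, 8 and 51 for accepted and rejecting against PD-1-only and accepted Havcr2 members. Without cells with a marker of other cells the rejecting PD-1-only comparison had 12, and with accepted grafts at 1 week the difference between models had 9. The cause was not tested. Shares without thinning were 20.3% and 30.9%, and at 500 UMIs 1.91% and 3.11%.

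Leaving out 1 library at a time, calls in rejecting grafts ranged from 61 without rejecting library 1 (110 without library 2) to 181, and the difference between models from 28 without rejecting library 1 (33 without library 2) to 56. Against PD-1-only cells the range was 83 (without accepted library 5) to 163 in accepted and 20 to 37 in rejecting grafts. It was 68 to 168 for accepted Havcr2 members (73 without library 1, 81 without library 4 and 68 without library 5), 32 (without rejecting library 2) to 61 for rejecting ones, 3320 (without rejecting library 2) to 5221 for the direct comparison, and 1104 and 1218 without libraries 1 and 2 to 1922 in accepted grafts at 1 week. A lone rejecting library is assumed to vary like the others.

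Direction changed on matching and on thinning in rejecting grafts for Mki67 (-0.12 and -0.14), Top2a (-0.10 and -0.076) and Ccl5 (0.52 and 0.43), and at 1 week for Mki67 (-0.21 and -0.39), Top2a (-0.31 and -0.39) and Ccl5 (0.32 and 0.23), with Ifng at -0.030 on thinning and Itga1 at 0.074 on matching. Between models Ccl5 was 0.38 and 0.36, and 0.28 with accepted grafts at 1 week, where Maf was -0.079. Ifng against PD-1-only cells in rejecting grafts was 0.78 on matching and, without library 1 and library 2, -0.75 and 1.01. In the direct comparison, accepted grafts at 1 week gave Fgl2 0.18, Il2rb 0.26, Itga1 2.73 and Cxcr6 0.30. Of 2710 alternative values for 167 named results, 2471 kept direction and call, 197 lost the call, 18 gained it and 24 reversed. The filter on cells removed none. Leaving out cells with a haemoglobin UMI, chosen after seeing the data, gave 901 calls in accepted and 185 in rejecting grafts. With 2 libraries, depth and number limit what rejecting grafts can show.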
